A study of Mus musculus with 8 samples.

Results

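Pluripotent lines obtained from mouse intestinal cells with small molecules were compared here with a library labelled as the intestinal cells of that route. Of the 8 RNA-seq libraries of the study, 3 belong to this route: chemically induced pluripotent stem cell (CiPSC) lines 10 and 13, whose starting cells were intestinal (IEC-CiPSC), and 1 library of primary epithelial cells of the small intestine (IEC) taken from E13.5 embryos. Of 17011 genes that reached 1 FPKM in any of the 8 libraries, the 15660 that did so in any of these 3 were counted. FPKM is the number of fragments per kilobase of transcript and mega (M) mapped fragments. IEC were of strain C57BL/6J-Tg(GOFGFP)15Imeg/RbrcxICR per the labels, while line 10 is labelled C57BL/6J-Tg(GOFGFP)16Imeg/RbrcxICR and line 13 C57BL/6J-Tg(GOFGFP)17Imeg/RbrcxICR. The integer before Imeg increases by 1 from library to library along the study, and what it marks is not given in the sources used here. GOF-GFP is a green fluorescent reporter driven by Pou5f1 regulatory sequence, and every library of the route carried it. The compounds and the time in them are not given in the sources used here. Where the route is set beside others, these are 3 NSC-CiPSC lines with 1 library of neural stem cells (NSC, passage 2, from E13.5 embryos, same reporter), and the R1 line of embryonic stem cells (ESC, 1 library, strain 129X1 x 129S1).

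Chemical reprogramming converts a somatic cell into a pluripotent one without introduced genes. A pluripotent stem cell is held by a network of transcription factors around Pou5f1, Sox2 and Nanog, divides rapidly with a short G1 phase, and has little extracellular matrix of its own. The embryonic gut is a tube of endodermal epithelium wrapped in mesenchyme, smooth muscle and mesothelium, and liver and pancreas bud from the same endoderm nearby.

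The 3 libraries were of like depth, with an inferred median of 10.1 M fragments in each. The labels do not say whether lines 10 and 13 came from separate animals or cultures. The p-values thus reflect how the IEC-CiPSC and NSC-CiPSC lines vary, which may be technical. The lone IEC library was assumed to vary like those lines. A list member that reached 1 FPKM in IEC alone or in the lines alone had its direction fixed by that filter, so counts over a list describe it and support nothing further. Members of a gene list that are named as its exceptions were chosen after their values were seen, since the naming rule takes the largest changes. Differences are given on the log2(FPKM + 1) scale, IEC-CiPSC minus IEC, with the standard error (SE) of the limma fit. The SE pools the spread of the IEC-CiPSC and NSC-CiPSC lines, so it can be large where lines 10 and 13 are close. That scale understates the change of genes with low levels. Where a gene is listed at 0 in 1 of the groups, its levels and adjusted p are given without a difference. Lines listed at 0 show no spread between them. The adjusted p of such genes, Ins2 and Gcg among them, can rest on spread that limma borrowed from other genes. In bulk RNA, fewer cells of a type and less RNA per cell cannot be told apart.

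The library labelled as small intestinal epithelium carried few intestinal epithelial transcripts and many of other tissues. Of 25 intestinal epithelium genes, 3 reached 10 FPKM in IEC, namely Fabp1 (109 FPKM), the trefoil peptide gene Tff3 (82.9 FPKM) and Lgals4 (16.8 FPKM). Tff3 was at 0 FPKM in both lines. Cdx2, the master regulator of intestinal identity, was at 0 FPKM in line 10 and 0.0909 FPKM in line 13, against 0.0912 FPKM in IEC. The brush border gene Vil1 was at 0.876 FPKM in line 10 and 0.339 FPKM in line 13, against 3.14 FPKM in IEC. In IEC the marker levels summed to 242 FPKM for intestinal epithelium, which is below the sums for fibroblast and mesenchyme (10054 FPKM), liver (8986 FPKM), smooth muscle (6222 FPKM), macrophage (4581 FPKM) and exocrine pancreas (2729 FPKM). Endothelial markers summed to 45.2 FPKM in IEC and those of other leukocytes to 53.9 FPKM. The endothelial cadherin Cdh5 was at 0.0991 FPKM in IEC while endoglin, Eng, was at 12.02 FPKM. No erythroid or megakaryocyte marker exceeded 3.24 FPKM there. The part of cell composition in the falls described next was not tested.

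**Figure D1:**
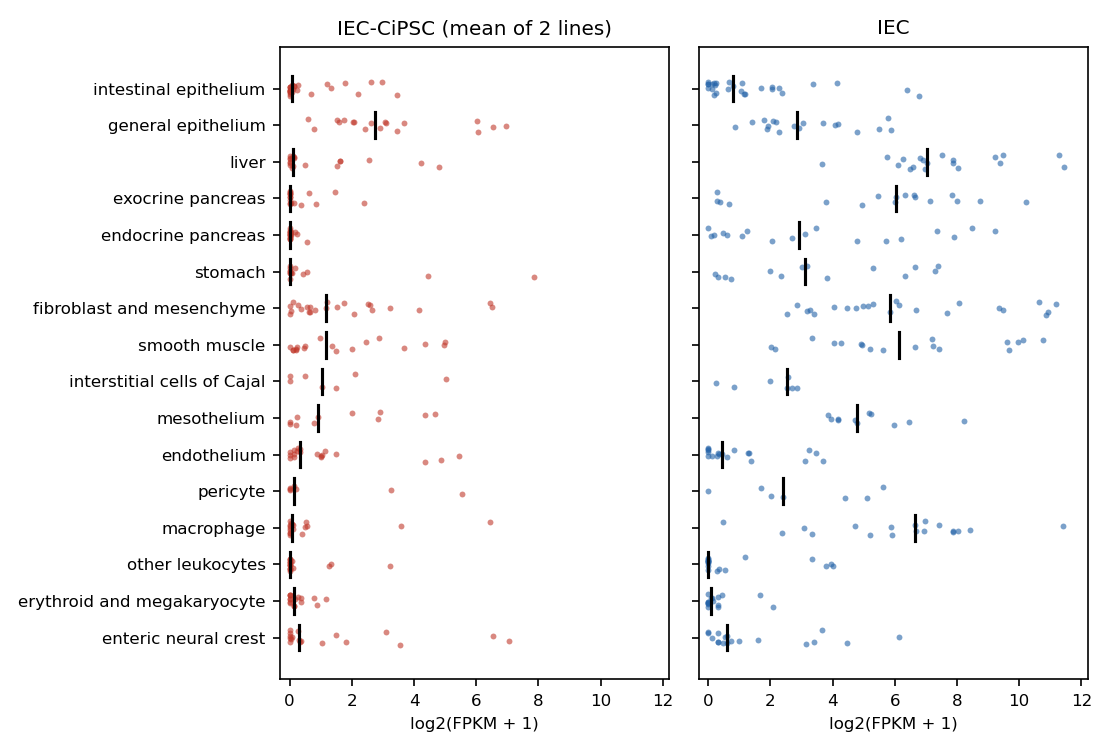
Levels of the marker genes of 16 cell types, log2(FPKM + 1), in IEC-CiPSC (left, mean of 2 lines) and in IEC (right). Each point is a gene, moved vertically at random within its row, and black bars are medians; the medians of the liver, pancreas, stomach, mesenchyme, smooth muscle, mesothelium and macrophage rows lie farther right in IEC than in IEC-CiPSC.

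Over all genes, IEC-CiPSC and IEC were far apart while the lines were close to each other. limma called 7714 of 15660 genes (49.3%) when the Benjamini-Hochberg adjusted p was under 0.05 and the difference 2-fold or more, with 3252 (20.8%) higher and 4462 (28.5%) lower in IEC-CiPSC. At an unadjusted p under 0.05 there were 10763 genes. The median log2 difference over all genes was -0.08, and it moved to 0.15 under quantile normalization and to -0.24 after rescaling the libraries to equal sums. Quantile normalization also turned the balance round, with 4075 genes higher and 3674 lower. Both lines reached 1 FPKM and IEC did not for 1223 genes, and IEC did so and neither line for 2554. Called genes listed at 0 numbered 404 in IEC and 628 in both lines among those lower there. Pearson's r across genes, which are not independent replicates, was 0.988 between the lines and 0.612 and 0.611 between each line and IEC.

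**Figure D2:**
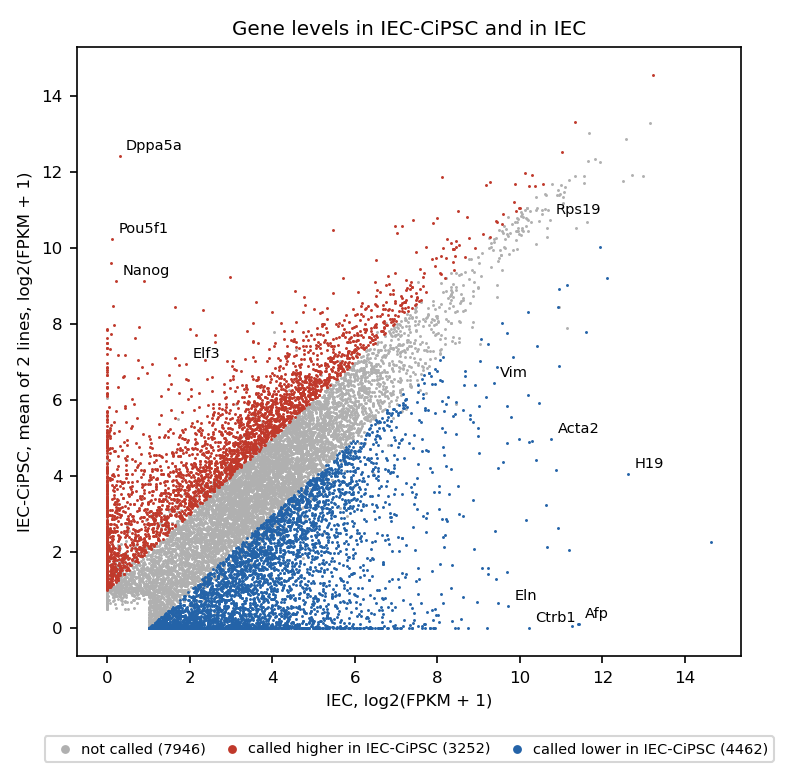
Mean log2(FPKM + 1) of the 2 IEC-CiPSC lines (vertical) against IEC (horizontal) for 15660 genes. Red points are the 3252 genes called higher and blue points the 4462 called lower in IEC-CiPSC; Dppa5a and Pou5f1 lie at the upper left, and Afp, Ctrb1 and Eln along the lower edge.

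The largest rises were led by genes known from early embryos. Dppa5a, an RNA-binding protein gene of pluripotent cells, was at 5628 FPKM in line 10 and 5271 FPKM in line 13, against 0.230 FPKM in IEC. Tdgf1, the co-receptor of Nodal, was at 799 FPKM in line 10 and 753 FPKM in line 13, against 0.0546 FPKM in IEC. Trap1a, an X-linked gene of trophoblast and tumours, was at 357 FPKM in line 10 and 350.5 FPKM in line 13, against 0.0968 FPKM in IEC. In each case IEC was under 1 FPKM, and the lines lay close together far above it. Dppa5a had the largest change of the genes named here (log2 difference 12.11 ± 0.29 SE, adjusted p = 3.06e-05), followed among these by Tdgf1 (log2 difference 9.52 ± 0.14 SE, adjusted p = 6.01e-06) and Trap1a (log2 difference 8.34 ± 0.05 SE, adjusted p = 1.44e-06).

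Less familiar genes followed. Mylpf, a fast-muscle myosin light chain gene, was at 564 FPKM in line 10 and 549.7 FPKM in line 13, against 0.844 FPKM in IEC (log2 difference 8.24 ± 0.11 SE, adjusted p = 5.30e-06). Sept1, a septin GTPase gene, was at 236 FPKM in line 10 and 248 FPKM in line 13, against 0.698 FPKM in IEC (log2 difference 7.16 ± 0.09 SE, adjusted p = 3.59e-06). Calcoco2, an autophagy receptor gene, was at 181 FPKM in line 10 and 217 FPKM in line 13, against 0 FPKM in IEC (adjusted p = 0.000335). All 3 were above 100 FPKM in both lines and under 1 FPKM in IEC. Ooep, a maternal-effect gene of the oocyte, was at 156 FPKM in line 10 and 139 FPKM in line 13, against 0 FPKM in IEC (adjusted p = 0.000290). The Fbxo15 gene, an F-box target of Pou5f1, was at 117 FPKM in line 10 and 114 FPKM in line 13, against 0 FPKM in IEC (adjusted p = 0.000233). L1td1, an RNA-binding gene derived from a LINE element, was at 226 FPKM in line 10 and 273 FPKM in line 13, against 0.120 FPKM in IEC (log2 difference 7.80 ± 0.59 SE, adjusted p = 0.000903). Line 13 was above line 10 for L1td1 and Calcoco2 and below it for Ooep, by little beside the distance to IEC.

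Genes for secreted proteins of several organs were among the largest falls. Afp, the fetal serum carrier made by liver and yolk sac, was at 0.0499 FPKM in line 10 and 0.0994 FPKM in line 13, against 2755 FPKM in IEC (log2 difference -11.32 ± 0.10 SE, adjusted p = 1.78e-06). Lyz2, the lysozyme of macrophages, was at 0.177 FPKM in line 10 and 0 FPKM in line 13, against 2696 FPKM in IEC (log2 difference -11.28 ± 0.32 SE, adjusted p = 5.12e-05). Eln, the elastin gene of elastic tissue, was at 0.591 FPKM in line 10 and 0.393 FPKM in line 13, against 839 FPKM in IEC (log2 difference -9.14 ± 0.17 SE, adjusted p = 1.46e-05). All 3 were under 1 FPKM in both lines and far above 100 FPKM in IEC. Ptn, a heparin-binding growth factor gene of mesenchyme, was at 0.155 FPKM in line 10 and 0.206 FPKM in line 13, against 382 FPKM in IEC (log2 difference -8.34 ± 0.28 SE, adjusted p = 8.67e-05). H19, a maternally expressed RNA, was at 16.001 FPKM in line 10 and 15.2 FPKM in line 13, against 6329.7 FPKM in IEC (log2 difference -8.57 ± 0.24 SE, adjusted p = 5.27e-05). It was the highest in IEC of the 15 largest falls, and it alone of them was above 10 FPKM in both lines.

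**Figure D3:**
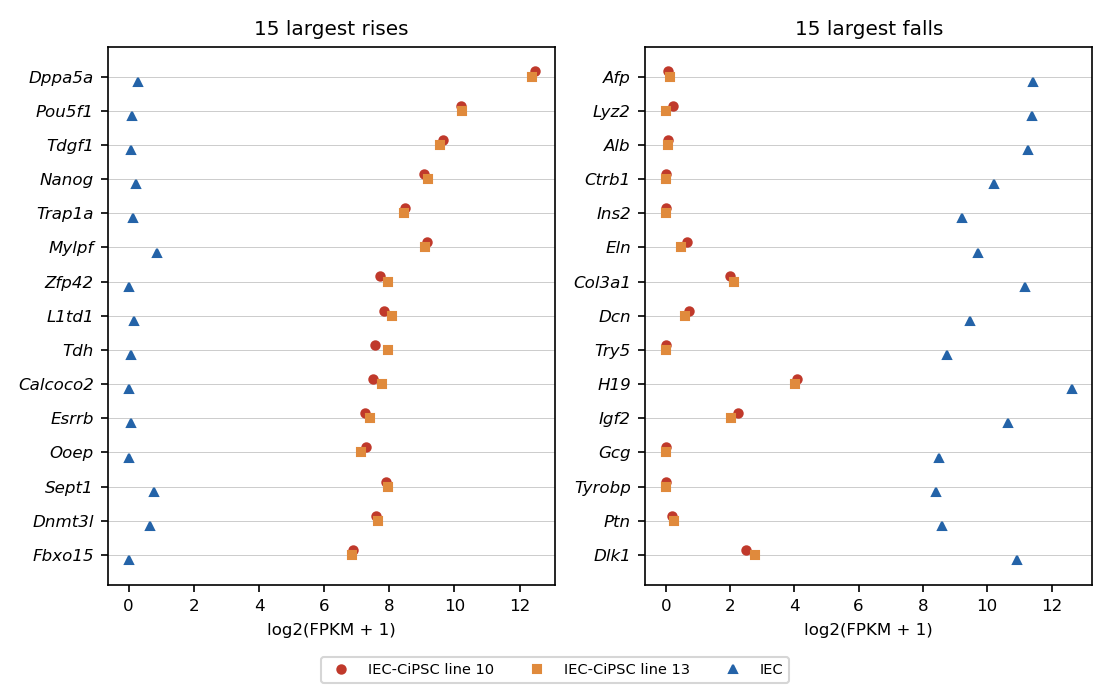
Levels of the 15 largest rises (left) and 15 largest falls (right) in line 10, line 13 and IEC, log2(FPKM + 1). The symbols of lines 10 and 13 nearly coincide for each gene, with IEC at the opposite end of the axis.

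Liver genes had the highest summed level of the endodermal lists in IEC. Of 19 liver genes counted, 18 fell and none rose, with a median difference of -6.60. By filter alone 13 of them had to be lower in the lines, since of the 3 libraries they reached 1 FPKM in IEC alone, and 4 are listed at 0 in both lines. Apoa1, the main protein of high-density lipoprotein, was at 0.114 FPKM in line 10 and 0.113 FPKM in line 13, against 264 FPKM in IEC (log2 difference -7.89 ± 0.22 SE, adjusted p = 4.73e-05). Ahsg, the fetuin gene, was at 1.48 FPKM in line 10 and 2.66 FPKM in line 13, against 594 FPKM in IEC (log2 difference -7.62 ± 0.40 SE, adjusted p = 0.000323). Ambp, the precursor of alpha-1-microglobulin and bikunin, was at 0 FPKM in line 10 and 0 FPKM in line 13, against 235 FPKM in IEC (adjusted p = 1.44e-06). IEC stood far above both lines in these 3 genes, and the lines lay at or near 0. The member that did not pass was Apoc2, an apolipoprotein gene, at 28.4 FPKM in line 10 and 25.9 FPKM in line 13, against 111 FPKM in IEC (log2 difference -1.99 ± 0.90 SE, adjusted p = 0.128).

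Some liver gene promoters hold a close match to the HNF1 motif, which is the block GTTAAT followed, after 1 base of any kind, by its reverse complement. HNF1 factors are homeodomain regulators of liver, pancreas and gut. Within the 250 bases before the start, on either strand and with up to 2 mismatches, 4 of 17 liver genes with a promoter sequence held it, against 1.45% of 27025 genes. The 120 bases before the start of those 4 are shown because they belong to the fibrinogen, albumin and fetoprotein genes that fell, with the match in capitals (RefSeq, GRCm38.p6, 5′ to 3′ on the gene's strand).
Afp (chr5:90490594-90490713, plus strand): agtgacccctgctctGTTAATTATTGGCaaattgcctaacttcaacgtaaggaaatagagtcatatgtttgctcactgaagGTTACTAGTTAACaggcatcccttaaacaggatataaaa
Alb (chr5:90460750-90460869, plus strand): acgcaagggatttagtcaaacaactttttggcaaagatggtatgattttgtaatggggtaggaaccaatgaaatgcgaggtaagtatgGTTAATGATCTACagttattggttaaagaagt
Fga (chr3:83026033-83026152, plus strand): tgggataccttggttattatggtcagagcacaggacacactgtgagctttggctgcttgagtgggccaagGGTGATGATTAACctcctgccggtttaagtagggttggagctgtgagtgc
Fgb (chr3:83049864-83049983, minus strand): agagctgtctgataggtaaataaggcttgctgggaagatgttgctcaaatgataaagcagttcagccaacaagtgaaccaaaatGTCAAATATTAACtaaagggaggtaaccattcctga
Afp holds 2 matches and the others 1 each; the motif reads nearly the same on both strands. Beside these sequences, Alb was at 0.0511 FPKM in line 10 and 0.0509 FPKM in line 13, against 2466 FPKM in IEC. Fga was at 0.0386 FPKM in line 10 and 0 FPKM in line 13, against 75.97 FPKM in IEC. The partner chain Fgb was at 0 FPKM in line 10 and 0 FPKM in line 13, against 129 FPKM in IEC. The 4 genes were above 70 FPKM in IEC and under 0.1 FPKM in both lines. A match describes the sequence and does not show binding.

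Pancreatic genes of both compartments were in IEC and at or near 0 in the lines. All 13 exocrine genes counted of 17 fell, with a median of -6.32, and 11 of them reached 1 FPKM in IEC alone and 8 are listed at 0 in both lines. Ctrb1, a chymotrypsinogen gene, was at 0 FPKM in line 10 and 0 FPKM in line 13, against 1184 FPKM in IEC (adjusted p = 1.46e-05). Clps, the cofactor of pancreatic lipase, was at 0.276 FPKM in line 10 and 0.278 FPKM in line 13, against 258 FPKM in IEC (log2 difference -7.66 ± 0.15 SE, adjusted p = 1.54e-05). The trypsinogen genes Try5, Try4 and Prss2 were listed at 0 in both lines and at 428, 97.03 and 226 FPKM in IEC. These genes are near-identical copies, so the division of fragments among them is uncertain. Of 13 endocrine genes counted of 18, 12 fell, and all 13 reached 1 FPKM in IEC alone.

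Islet hormone genes led this list. Gcg, the glucagon gene, was at 0 FPKM in line 10 and 0 FPKM in line 13, against 361 FPKM in IEC (adjusted p = 1.44e-06). Iapp, the amylin gene of beta cells, was at 0 FPKM in line 10 and 0 FPKM in line 13, against 165 FPKM in IEC (adjusted p = 1.44e-06). Pyy, a peptide hormone of islets and gut, was at 0 FPKM in line 10 and 0 FPKM in line 13, against 72.3 FPKM in IEC (adjusted p = 0.000543). All 3 were above 50 FPKM in IEC. Ins2, one of a pair of similar insulin genes, was at 0 FPKM in line 10 and 0 FPKM in line 13, against 592 FPKM in IEC (adjusted p = 1.44e-06). Pax6, a regulator of islet cells, was the member that did not pass, at 0 FPKM in line 10 and 0.258 FPKM in line 13, against 1.11 FPKM in IEC (log2 difference -0.91 ± 0.52 SE, adjusted p = 0.197). The early regulators Pdx1, Neurog3 and Ptf1a were under 1 FPKM in all 3 libraries.

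Stomach genes formed another endodermal group. Of 10 stomach genes counted, 8 fell and 1 rose, and 8 reached 1 FPKM in IEC alone. Barx1, a homeobox gene of stomach mesenchyme, was at 0.709 FPKM in line 10 and 0.236 FPKM in line 13, against 167 FPKM in IEC (log2 difference -6.86 ± 0.25 SE, adjusted p = 0.000115). Tff1, a trefoil peptide gene of gastric mucus cells, was at 0 FPKM in line 10 and 0 FPKM in line 13, against 157 FPKM in IEC (adjusted p = 1.44e-06). Gif, the intrinsic factor gene, was at 0 FPKM in line 10 and 0 FPKM in line 13, against 38.8 FPKM in IEC (adjusted p = 1.44e-06). The member that rose was Sox2, which marks foregut as well as pluripotent cells, at 238 FPKM in line 10 and 227 FPKM in line 13, against 3.00 FPKM in IEC (log2 difference 5.87 ± 0.06 SE, adjusted p = 2.70e-06). Pgc, a pepsinogen gene, did not pass and kept a level in the lines, at 21.4 FPKM in line 10 and 19.97 FPKM in line 13, against 78.8 FPKM in IEC (log2 difference -1.88 ± 0.60 SE, adjusted p = 0.0548).

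Within the intestinal list the members did not move together. Of 15 counted, 8 fell and 3 rose, beside 28.5% lower and 20.8% higher over all genes, and 8 of the 15 reached 1 FPKM in IEC alone. With a filter of 5 FPKM the falls were 4. Fabp1, a fatty acid carrier shared by liver and gut, was at 0 FPKM in line 10 and 0 FPKM in line 13, against 109 FPKM in IEC (adjusted p = 1.44e-06). Lgals4, a galectin of gut epithelium, was at 1.81 FPKM in line 10 and 1.20 FPKM in line 13, against 16.8 FPKM in IEC (log2 difference -2.84 ± 0.25 SE, adjusted p = 0.00135). Cdx1, a homeobox gene of gut and of the early embryo, was at 7.66 FPKM in line 10 and 12.1 FPKM in line 13, against 0.182 FPKM in IEC (log2 difference 3.17 ± 0.40 SE, adjusted p = 0.00391). Cdx1 was higher in line 13 than in line 10, and both were far above IEC. Foxa3, a forkhead factor of endoderm, was at 0.205 FPKM in line 10 and 0.204 FPKM in line 13, against 4.20 FPKM in IEC (log2 difference -2.11 ± 0.10 SE, adjusted p = 0.000236).

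General epithelium genes moved both ways. Of 18 general epithelium genes, 6 rose and 5 fell, with a median of -0.53. That is 33.3% and 27.8% beside 20.8% and 28.5% over all genes. The calls of Grhl2, which rose, and Esrp1, which fell, were lost when either line was left out. Under quantile normalization the falls of Esrp1 and Prss8 were short of 2-fold. Cldn4, a tight junction gene, was at 102 FPKM in line 10 and 83.8 FPKM in line 13, against 7.26 FPKM in IEC (log2 difference 3.50 ± 0.25 SE, adjusted p = 0.000724). Cdh1, the E-cadherin gene, was at 67.4 FPKM in line 10 and 63.4 FPKM in line 13, against 11.9 FPKM in IEC (log2 difference 2.36 ± 0.15 SE, adjusted p = 0.000563). Krt7, a simple keratin gene, was at 0.530 FPKM in line 10 and 0.495 FPKM in line 13, against 44.5 FPKM in IEC (log2 difference -4.91 ± 0.51 SE, adjusted p = 0.00228). The keratins Krt8 and Krt18, which pair in simple epithelia, fell by 3.47 and 3.19 on the log2 scale. Elf3, an epithelial ETS factor gene, had the widest gap, at 132 FPKM in line 10 and 113 FPKM in line 13, against 2.77 FPKM in IEC (log2 difference 5.03 ± 1.12 SE, adjusted p = 0.0203), and its call was lost in other settings (adjusted p = 0.0850 without line 10 and 0.0792 without line 13). Of 7 members that did not pass, the claudin Cldn7 was at 14.01 FPKM in line 10 and 9.46 FPKM in line 13, against 17.2 FPKM in IEC (log2 difference -0.54 ± 0.42 SE, adjusted p = 0.324). The keratin Krt19 was at 7.22 FPKM in line 10 and 5.68 FPKM in line 13, against 26.5 FPKM in IEC (log2 difference -1.89 ± 0.60 SE, adjusted p = 0.0546).

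Mesenchymal genes were all lower among those counted. All 23 fibroblast and mesenchyme genes were lower, with a median of -3.53, and 11 reached 1 FPKM in IEC alone. Col1a2, a chain of type I collagen, was at 7.21 FPKM in line 10 and 9.74 FPKM in line 13, against 1576 FPKM in IEC (log2 difference -7.39 ± 0.23 SE, adjusted p = 7.11e-05). Lum, a small leucine-rich proteoglycan gene, was at 0.1004 FPKM in line 10 and 0.04998 FPKM in line 13, against 204 FPKM in IEC (log2 difference -7.57 ± 0.06 SE, adjusted p = 1.50e-06). Dlk1, an imprinted gene of embryonic mesenchyme, was at 4.61 FPKM in line 10 and 5.88 FPKM in line 13, against 1941 FPKM in IEC (log2 difference -8.29 ± 0.46 SE, adjusted p = 0.000372). Vim, the mesenchymal intermediate filament gene, kept a level in the lines, at 82.9 FPKM in line 10 and 88.4 FPKM in line 13, against 656 FPKM in IEC (log2 difference -2.92 ± 0.33 SE, adjusted p = 0.00287). Of these 4 genes Vim had the highest level in both lines and the smallest fall.

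All 18 smooth muscle genes counted fell, with a median of -4.65, and 8 of them reached 1 FPKM in IEC alone. Actg2, the enteric smooth muscle actin, was at 1.67 FPKM in line 10 and 1.91 FPKM in line 13, against 823 FPKM in IEC (log2 difference -8.21 ± 0.29 SE, adjusted p = 9.64e-05). Myh11, the smooth muscle myosin heavy chain, was at 0.131 FPKM in line 10 and 0.188 FPKM in line 13, against 172 FPKM in IEC (log2 difference -7.22 ± 0.07 SE, adjusted p = 2.13e-06). Mylk, the myosin light chain kinase, was at 0.160 FPKM in line 10 and 0.147 FPKM in line 13, against 146 FPKM in IEC (log2 difference -7.00 ± 0.07 SE, adjusted p = 2.40e-06). In the lines Myh11 and Mylk were under 1 FPKM. Acta2, the vascular and visceral smooth muscle actin, kept more, at 27.2 FPKM in line 10 and 34.3 FPKM in line 13, against 1734 FPKM in IEC (log2 difference -5.78 ± 0.48 SE, adjusted p = 0.00116). The CArG box, the site of serum response factor, was found in the 250 bases before the start of 1 of 13 smooth muscle genes with a sequence (Myl9), against 1.62% of all genes.

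Smaller cell types of the gut wall were mixed. In IEC alone 6 of the 11 mesothelium genes and 4 of the 6 pericyte genes reached 1 FPKM. Of 11 mesothelium genes, 9 fell, among them Upk3b, a uroplakin of the serosal lining, at 0.745 FPKM in line 10 and 0.698 FPKM in line 13, against 86.5 FPKM in IEC (log2 difference -5.67 ± 0.18 SE, adjusted p = 7.55e-05). Wt1, the mesothelial zinc finger factor, was at 0.130 FPKM in line 10 and 0.249 FPKM in line 13, against 16.96 FPKM in IEC (log2 difference -3.92 ± 0.54 SE, adjusted p = 0.00515). Of 6 pericyte genes, 4 fell (66.7%, beside 28.5% over all genes), such as Kcnj8, a potassium channel gene, at 0 FPKM in line 10 and 0 FPKM in line 13, against 48.7 FPKM in IEC (adjusted p = 1.44e-06). The 2 others were higher in the lines and did not pass. Ndufa4l2 was at 55.3 FPKM in line 10 and 35.5 FPKM in line 13, against 2.25 FPKM in IEC. Notch3 was at 9.86 FPKM in line 10 and 7.34 FPKM in line 13, against 4.32 FPKM in IEC. Of 11 endothelial genes counted, 3 rose and 2 fell, which is 27.3% and 18.2% beside 20.8% and 28.5% over all genes. The call of Cldn5, among those that rose, was lost when either line was left out. Pecam1, an adhesion gene of endothelium that pluripotent cells also express, was at 45.2 FPKM in line 10 and 39.5 FPKM in line 13, against 0.359 FPKM in IEC (log2 difference 4.99 ± 0.41 SE, adjusted p = 0.00112). The lines were close to each other in Upk3b, Wt1, Kcnj8 and Pecam1. In the enteric neural crest list 4 rose and 4 fell of 10, which is 40% each way beside 20.8% and 28.5% over all genes. Hand2, a factor of gut neurons and mesenchyme, was at 0.185 FPKM in line 10 and 0.322 FPKM in line 13, against 69.7 FPKM in IEC (log2 difference -5.82 ± 0.15 SE, adjusted p = 4.09e-05). Stmn2, a neuronal microtubule regulator, was at 123 FPKM in line 10 and 139.9 FPKM in line 13, against 0.663 FPKM in IEC (log2 difference 6.31 ± 0.52 SE, adjusted p = 0.00117). Sox10, a defining factor of crest cells, was under 1 FPKM in all 3 libraries.

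Macrophage genes fell in every counted member. All 17 were lower, with a median of -5.89, and 15 reached 1 FPKM in IEC alone. Tyrobp, a signalling adaptor of myeloid cells, was at 0 FPKM in line 10 and 0 FPKM in line 13, against 341 FPKM in IEC (adjusted p = 1.44e-06). Trem2, a lipid-sensing receptor of macrophages, was at 0 FPKM in line 10 and 0 FPKM in line 13, against 123 FPKM in IEC (adjusted p = 1.44e-06). C1qc, a chain of the complement recognition protein, was at 0 FPKM in line 10 and 0 FPKM in line 13, against 98.6 FPKM in IEC (adjusted p = 1.44e-06). All 3 are listed at 0 in both lines, while in IEC they were near or above 100 FPKM. Laptm5, a lysosomal protein gene of blood cells, differed from them in its level in the lines, at 87.3 FPKM in line 10 and 82.8 FPKM in line 13, against 232 FPKM in IEC (log2 difference -1.44 ± 0.19 SE, adjusted p = 0.00430). Of 7 other leukocyte genes 5 fell, and Cd3e and Cd79a rose, the call of Cd79a being lost in other settings (adjusted p = 0.0802 without line 10 and 0.0618 without line 13). Ptprc, the common leukocyte antigen, was at 0 FPKM in line 10 and 0 FPKM in line 13, against 9.23 FPKM in IEC (adjusted p = 3.87e-06). Cd3e, a T-cell receptor subunit, was at 8.70 FPKM in line 10 and 7.92 FPKM in line 13, against 0 FPKM in IEC (adjusted p = 0.000236).

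Genes of the extracellular matrix were mostly lower in the lines. Of 20 collagen genes, 18 fell and 1 rose, with a median of -4.81, and 7 reached 1 FPKM in IEC alone. Col14a1, a fibril-associated collagen, was at 0.0450 FPKM in line 10 and 0.0493 FPKM in line 13, against 195 FPKM in IEC (log2 difference -7.55 ± 0.08 SE, adjusted p = 2.40e-06). Col6a1, a beaded-filament collagen, was at 0.914 FPKM in line 10 and 1.27 FPKM in line 13, against 319 FPKM in IEC (log2 difference -7.26 ± 0.33 SE, adjusted p = 0.000214). Col2a1, the cartilage collagen, was the member that rose, at 4.48 FPKM in line 10 and 3.92 FPKM in line 13, against 0.218 FPKM in IEC (log2 difference 2.09 ± 0.15 SE, adjusted p = 0.000804). Its level was low in every library. Col18a1, a basement membrane collagen, stayed short of 2-fold, at 56.8 FPKM in line 10 and 53.4 FPKM in line 13, against 30.1 FPKM in IEC (log2 difference 0.85 ± 0.11 SE, adjusted p = 0.00410).

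Matrix glycoproteins and proteoglycans moved likewise. Of 23, 16 fell and 1, the laminin chain Lama1, rose. Lama1 was at 6.04 FPKM in line 10 and 6.40 FPKM in line 13, against 1.22 FPKM in IEC (log2 difference 1.70 ± 0.36 SE, adjusted p = 0.0174), and its call was lost when either line was left out (adjusted p = 0.0698 without line 10 and 0.0765 without line 13). Mgp, an inhibitor of calcification, was at 1.93 FPKM in line 10 and 1.46 FPKM in line 13, against 599 FPKM in IEC (log2 difference -7.80 ± 0.23 SE, adjusted p = 5.69e-05). Bgn, a proteoglycan that binds fibrillar collagen, was at 20.4 FPKM in line 10 and 20.2 FPKM in line 13, against 1347 FPKM in IEC (log2 difference -5.99 ± 0.12 SE, adjusted p = 1.69e-05). Fmod, a small collagen-binding proteoglycan, was at 0.257 FPKM in line 10 and 0.416 FPKM in line 13, against 214 FPKM in IEC (log2 difference -7.33 ± 0.09 SE, adjusted p = 4.31e-06). These 3 were far higher in IEC than in either line. Of the members that did not pass, 3 are described. The laminin chain Lamc1 was at 66.9 FPKM in line 10 and 70.3 FPKM in line 13, against 67.7 FPKM in IEC. The nidogen Nid2 was at 63.6 FPKM in line 10 and 57.1 FPKM in line 13, against 43.4 FPKM in IEC. Perlecan, Hspg2, was at 26.03 FPKM in line 10 and 26.9 FPKM in line 13, against 24.2 FPKM in IEC. The log2 differences of these 3 were 0.02, 0.46 and 0.12.

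Most remodelling genes and receptors for the matrix fell. Of 17 remodelling genes 14 fell and the inhibitor gene Timp1 rose, and of 15 integrin genes 12 fell. Timp2, a metalloproteinase inhibitor, was at 9.72 FPKM in line 10 and 8.86 FPKM in line 13, against 462 FPKM in IEC (log2 difference -5.49 ± 0.16 SE, adjusted p = 5.29e-05). Mmp14, a membrane-bound collagenase, was at 7.49 FPKM in line 10 and 7.999 FPKM in line 13, against 259.6 FPKM in IEC (log2 difference -4.90 ± 0.23 SE, adjusted p = 0.000233). Lox, which cross-links collagen and elastin, was at 15.6 FPKM in line 10 and 18.7 FPKM in line 13, against 322 FPKM in IEC (log2 difference -4.16 ± 0.20 SE, adjusted p = 0.000253). Each was far higher in IEC than in either line. Itgb1, the shared beta chain of matrix integrins, was at 60.4 FPKM in line 10 and 60.8 FPKM in line 13, against 346 FPKM in IEC (log2 difference -2.49 ± 0.11 SE, adjusted p = 0.000183). Itga6, the laminin receptor chain, stayed just short of 2-fold, at 47.8 FPKM in line 10 and 46.4 FPKM in line 13, against 23.2 FPKM in IEC (log2 difference 0.99 ± 0.13 SE, adjusted p = 0.00406).

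Of 15 genes of the epithelial-mesenchymal switch, 10 fell and 2 rose, which were Cdh1 and the epithelial factor gene Grhl2. The call of Grhl2 was lost when either line was left out (adjusted p = 0.0552 without line 10 and 0.0686 without line 13). Cdh11, a mesenchymal cadherin, was at 0.453 FPKM in line 10 and 0.656 FPKM in line 13, against 160.3 FPKM in IEC (log2 difference -6.70 ± 0.13 SE, adjusted p = 1.41e-05). Zeb2, a repressor of E-cadherin, was at 0.478 FPKM in line 10 and 0.470 FPKM in line 13, against 21.5 FPKM in IEC (log2 difference -3.93 ± 0.24 SE, adjusted p = 0.000463). Snai2, another such repressor, was at 0.565 FPKM in line 10 and 0.973 FPKM in line 13, against 15.6 FPKM in IEC (log2 difference -3.24 ± 0.19 SE, adjusted p = 0.000463). The fall of Cdh11 was larger than those of the repressors by over 2 on the log2 scale. The repressor Snai1 did not pass, at 5.24 FPKM in line 10 and 3.97 FPKM in line 13, against 8.23 FPKM in IEC (log2 difference -0.73 ± 0.31 SE, adjusted p = 0.108).

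Most TGF-beta genes were lower in the lines. TGF-beta ligands act through Tgfbr2 and Tgfbr1 on Smad proteins. Of 19 genes of this pathway 14 fell and 1 rose. The ligand Tgfb1 was at 0.762 FPKM in line 10 and 1.09 FPKM in line 13, against 44.7 FPKM in IEC (log2 difference -4.57 ± 0.40 SE, adjusted p = 0.00132). The receptor Tgfbr2 was at 0.413 FPKM in line 10 and 0.207 FPKM in line 13, against 67.2 FPKM in IEC (log2 difference -5.71 ± 0.14 SE, adjusted p = 3.45e-05). Tgfbi, a target gene that encodes a matrix protein, was at 1.82 FPKM in line 10 and 1.13 FPKM in line 13, against 131 FPKM in IEC (log2 difference -5.75 ± 0.46 SE, adjusted p = 0.00105). Ligand, receptor and target were each higher in IEC than in either line, while the transducer Smad2 did not pass, at 22.8 FPKM in line 10 and 23.4 FPKM in line 13, against 26.6 FPKM in IEC (log2 difference -0.20 ± 0.18 SE, adjusted p = 0.406).

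BMP and hedgehog genes were called lower more often than higher, beside 28.5% lower and 20.8% higher over all genes. Of 16 BMP genes 13 fell (81%) and none rose. Grem1, a secreted BMP antagonist of gut mesenchyme, was at 0.665 FPKM in line 10 and 1.09 FPKM in line 13, against 183 FPKM in IEC (log2 difference -6.63 ± 0.25 SE, adjusted p = 0.000119). The ligand Bmp4 was at 0.789 FPKM in line 10 and 1.31 FPKM in line 13, against 43.4 FPKM in IEC (log2 difference -4.45 ± 0.65 SE, adjusted p = 0.00598). Of 13 hedgehog genes 8 fell (61.5%) and 2 rose (15.4%). Gas1, a hedgehog co-receptor, was at 1.29 FPKM in line 10 and 0.880 FPKM in line 13, against 106 FPKM in IEC (log2 difference -5.68 ± 0.21 SE, adjusted p = 0.000120). The co-receptor Boc was at 0.754 FPKM in line 10 and 0.728 FPKM in line 13, against 22.3 FPKM in IEC (log2 difference -3.75 ± 0.32 SE, adjusted p = 0.00123). The receptor Ptch1 and the effector Gli1, both targets of the pathway, did not pass. Ptch1 was at 14.05 FPKM in line 10 and 11.5 FPKM in line 13, against 5.39 FPKM in IEC (log2 difference 1.10 ± 0.43 SE, adjusted p = 0.0931). Gli1 was at 1.44 FPKM in line 10 and 1.86 FPKM in line 13, against 1.71 FPKM in IEC (log2 difference -0.04 ± 0.27 SE, adjusted p = 0.927).

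Wnt genes were called lower (46.4%) more often than higher (14.3%), beside 28.5% and 20.8% over all genes. Of 28 Wnt genes 13 fell and 4 rose (Fzd10, Lef1, Tcf7 and Porcn), and 9 reached 1 FPKM in IEC alone. The calls of Lef1 (adjusted p = 0.102 without line 10 and 0.0981 without line 13) and Porcn (adjusted p = 0.0558 in a fit of the 3 libraries alone) were lost in other settings. Rspo3, an enhancer of Wnt reception, was at 0.0857 FPKM in line 10 and 0.0427 FPKM in line 13, against 37.4 FPKM in IEC (log2 difference -5.17 ± 0.06 SE, adjusted p = 3.92e-06). Sfrp2, a secreted frizzled-related protein, was at 4.96 FPKM in line 10 and 4.04 FPKM in line 13, against 291 FPKM in IEC (log2 difference -5.73 ± 0.15 SE, adjusted p = 4.05e-05). The receptor Fzd1 was at 0.562 FPKM in line 10 and 0.603 FPKM in line 13, against 54.7 FPKM in IEC (log2 difference -5.14 ± 0.21 SE, adjusted p = 0.000155). All 3 were far higher in IEC than in either line. Ctnnb1, which encodes beta-catenin, stayed short of 2-fold, at 204 FPKM in line 10 and 213 FPKM in line 13, against 243 FPKM in IEC (log2 difference -0.22 ± 0.05 SE, adjusted p = 0.0259). The target gene Axin2 was at 4.18 FPKM in line 10 and 4.39 FPKM in line 13, against 5.39 FPKM in IEC (log2 difference -0.28 ± 0.38 SE, adjusted p = 0.570). Tcf7, a DNA-binding partner of beta-catenin, was among the 4 that rose, at 26.4 FPKM in line 10 and 24.5 FPKM in line 13, against 2.83 FPKM in IEC (log2 difference 2.79 ± 0.23 SE, adjusted p = 0.00116).

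Among other signals, IGF and retinoic acid genes fell more often than they rose, beside 28.5% lower and 20.8% higher over all genes. Of 14 IGF genes 9 fell (64.3%) and Igf2bp1 rose (7.14%). Igf1 was at 0 FPKM in line 10 and 0.0136 FPKM in line 13, against 93.004 FPKM in IEC (log2 difference -6.54 ± 0.14 SE, adjusted p = 2.41e-05). Igfbp5, an IGF-binding protein, was at 0.742 FPKM in line 10 and 0.777 FPKM in line 13, against 394 FPKM in IEC (log2 difference -7.81 ± 0.16 SE, adjusted p = 1.99e-05). Igf2bp1, an RNA-binding protein named for its target and not a ligand, was at 143 FPKM in line 10 and 133 FPKM in line 13, against 2.13 FPKM in IEC (log2 difference 5.47 ± 0.27 SE, adjusted p = 0.000273). Igfbp2 was high in all 3 libraries and did not pass, at 707 FPKM in line 10 and 589 FPKM in line 13, against 350.2 FPKM in IEC (log2 difference 0.88 ± 0.70 SE, adjusted p = 0.337). Of 13 retinoic acid genes 8 fell (61.5%) and none rose. Aldh1a1, which makes retinoic acid, was at 0 FPKM in line 10 and 0.0506 FPKM in line 13, against 42.5 FPKM in IEC (log2 difference -5.41 ± 0.07 SE, adjusted p = 4.13e-06). The receptor Rara was at 13.6 FPKM in line 10 and 10.2 FPKM in line 13, against 13.9 FPKM in IEC (log2 difference -0.22 ± 0.21 SE, adjusted p = 0.411).

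FGF, Notch and LIF genes moved both ways. Over all genes 28.5% fell and 20.8% rose. The same shares were 42.1% and 15.8% for FGF and ERK, 21.4% and 35.7% for Notch, and 63.6% and 9.09% for LIF and STAT3. Fgf4, the ligand that pluripotent cells secrete, was at 118 FPKM in line 10 and 111 FPKM in line 13, against 0 FPKM in IEC (adjusted p = 0.000185). Etv4, an ETS factor downstream of ERK, was at 46.4 FPKM in line 10 and 55.1 FPKM in line 13, against 2.51 FPKM in IEC (log2 difference 3.87 ± 0.34 SE, adjusted p = 0.00141). Fgf9, a ligand of gut epithelium and mesothelium, was at 0 FPKM in line 10 and 0 FPKM in line 13, against 7.62 FPKM in IEC (adjusted p = 7.82e-06). In all, 8 of 19 FGF and ERK genes fell and 3 rose. Of 14 Notch genes 5 rose and 3 fell, with Rbpj, the DNA-binding subunit of the pathway, at 63.04 FPKM in line 10 and 63.3 FPKM in line 13, against 18.7 FPKM in IEC (log2 difference 1.71 ± 0.18 SE, adjusted p = 0.00243). The count of Notch rises was 8 under quantile normalization, 2 in a fit of the 3 libraries alone and 3 without line 10. Of 11 LIF and STAT3 genes 7 fell, among them the shared receptor chain Il6st at 14.8 FPKM in line 10 and 17.4 FPKM in line 13, against 114 FPKM in IEC (log2 difference -2.75 ± 0.21 SE, adjusted p = 0.000856). The 1 that rose was Socs3, a feedback inhibitor induced by STAT3, at 70.1 FPKM in line 10 and 64.8 FPKM in line 13, against 11.7 FPKM in IEC (log2 difference 2.43 ± 0.11 SE, adjusted p = 0.000223).

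Antigen presentation and interferon genes were lower in the lines in most but not all members. Class I molecules display peptides on almost every somatic cell. Of 23 genes 15 fell and 1 rose, with a median of -1.98. B2m, the light chain of class I, was at 27.1 FPKM in line 10 and 30.4 FPKM in line 13, against 1187 FPKM in IEC (log2 difference -5.32 ± 0.17 SE, adjusted p = 7.71e-05). H2-K1, a classical heavy chain, was at 8.69 FPKM in line 10 and 6.93 FPKM in line 13, against 179.9 FPKM in IEC (log2 difference -4.37 ± 0.45 SE, adjusted p = 0.00215). Isg15, an interferon-induced ubiquitin-like protein, was at 0.343 FPKM in line 10 and 0 FPKM in line 13, against 41.6 FPKM in IEC (log2 difference -5.20 ± 0.29 SE, adjusted p = 0.000369). B2m and H2-K1 kept a level in the lines, and Isg15 was at or near 0 there. The heavy chains are members of a family of similar genes, so their levels are uncertain.

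Interferon-responsive promoters often carry the ISRE core, a pair of GAAA blocks with 2 bases of any kind between them. Within the 250 bases before the start, on either strand and without mismatch, 7 of 19 genes of this list with a sequence held it, against 3.46% of all genes. The 150 bases before the start are shown for B2m and for a pair of interferon-induced genes that fell, with the matches in capitals (RefSeq, GRCm38.p6); in Isg15 the 3 matches overlap, and in Ifit1 both lie on the opposite strand.
B2m (chr2:122147537-122147686, plus strand): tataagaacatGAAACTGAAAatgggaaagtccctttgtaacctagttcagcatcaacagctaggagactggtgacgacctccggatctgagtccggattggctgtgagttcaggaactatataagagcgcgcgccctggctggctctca
Ifit1 (chr19:34640739-34640888, plus strand): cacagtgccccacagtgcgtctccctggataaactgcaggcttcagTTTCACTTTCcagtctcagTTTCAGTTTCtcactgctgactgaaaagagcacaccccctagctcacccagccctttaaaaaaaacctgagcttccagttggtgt
Isg15 (chr4:156200819-156200968, minus strand): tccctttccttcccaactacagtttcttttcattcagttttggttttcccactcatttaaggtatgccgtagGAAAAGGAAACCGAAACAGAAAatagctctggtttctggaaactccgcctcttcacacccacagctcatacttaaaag
Ifit1 was at 0 FPKM in line 10 and 0 FPKM in line 13, against 13.8 FPKM in IEC (adjusted p = 2.40e-06). The element did not go with a fall in every gene: Ifitm2, a restriction factor gene that holds it, was at 547 FPKM in line 10 and 496 FPKM in line 13, against 699 FPKM in IEC (log2 difference -0.42 ± 0.40 SE, adjusted p = 0.408). Ifitm1, an antiviral membrane protein gene, was the member that rose, at 102 FPKM in line 10 and 104.6 FPKM in line 13, against 46.5 FPKM in IEC (log2 difference 1.13 ± 0.13 SE, adjusted p = 0.00305). Under quantile normalization and after rescaling to equal sums its difference was 0.98 and 0.97, short of 2-fold. Ifit1 was chosen for its sequence. In the list of complement and chemokine genes, 14 of 15 fell and none rose, and 7 reached 1 FPKM in IEC alone. Cxcl12, a chemokine of mesenchyme, was at 0.0691 FPKM in line 10 and 0.0878 FPKM in line 13, against 208 FPKM in IEC (log2 difference -7.60 ± 0.32 SE, adjusted p = 0.000178). C3, the central complement protein, was at 1.37 FPKM in line 10 and 0.0567 FPKM in line 13, against 194 FPKM in IEC (log2 difference -6.95 ± 0.56 SE, adjusted p = 0.00108).

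Pluripotency genes were far above IEC in both lines. Of 20 pluripotency transcription factors 19 rose, and all 24 effectors did, with median log2 differences of 4.92 and 5.54. IEC was under 1 FPKM for 12 of the factors and 20 of the effectors, which were thus counted through the lines alone. The median level of the factors was 47.8 FPKM in line 10 and 52.9 FPKM in line 13, against 0.119 FPKM in IEC, and 57.99 FPKM in ESC. Esrrb, an orphan nuclear receptor of the naive state, was at 153 FPKM in line 10 and 169 FPKM in line 13, against 0.0486 FPKM in IEC (log2 difference 7.27 ± 0.09 SE, adjusted p = 3.76e-06), with 185 FPKM in ESC. Mybl2, a cell-cycle factor of pluripotent cells, was at 325 FPKM in line 10 and 336 FPKM in line 13, against 4.02 FPKM in IEC (log2 difference 6.05 ± 0.08 SE, adjusted p = 4.05e-06), with 250.05 FPKM in ESC. Tdh, the mouse threonine dehydrogenase, was at 186 FPKM in line 10 and 245 FPKM in line 13, against 0.0560 FPKM in IEC (log2 difference 7.67 ± 0.46 SE, adjusted p = 0.000474), with 308 FPKM in ESC. The factor that did not pass was Gbx2, a homeobox gene, at 1.25 FPKM in line 10 and 1.85 FPKM in line 13, against 0 FPKM in IEC (adjusted p = 0.150). The octamer ATGCAAAT was found in 1 of 15 promoters of the factors (Zfp42) and in 0 of 14 of the effectors, against 1.81% of all genes.

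The 2-cell-like, germline and primed epiblast lists held mostly rises, and that of trophectoderm moved both ways. IEC was under 1 FPKM for 9 of the 2-cell-like, 15 of the germline and 9 of the primed epiblast genes, which were thus counted through the lines alone. Of 10 genes of the 2-cell-like state 9 rose, with the zinc finger gene Zscan4f, one of a family of near-identical copies, at 12.5 FPKM in line 10 and 12.7 FPKM in line 13, against 0 FPKM in IEC (adjusted p = 0.00117). Of 15 germline genes 14 rose. Rhox5, an X-linked homeobox gene of a repeated cluster, was at 138 FPKM in line 10 and 153 FPKM in line 13, against 0.345 FPKM in IEC (log2 difference 6.77 ± 0.27 SE, adjusted p = 0.000143). Tex19.1, a germ cell gene that restrains retrotransposons, was at 45.97 FPKM in line 10 and 46.8 FPKM in line 13, against 0 FPKM in IEC (adjusted p = 9.40e-05). Mael, a piRNA pathway gene, was at 10.5 FPKM in line 10 and 8.80 FPKM in line 13, against 0.0701 FPKM in IEC (log2 difference 3.31 ± 0.30 SE, adjusted p = 0.00154). Of 11 primed epiblast genes 7 rose, such as Otx2, a homeobox factor of the forming epiblast, at 5.55 FPKM in line 10 and 3.89 FPKM in line 13, against 0 FPKM in IEC (adjusted p = 0.00107). Of 11 trophectoderm genes 4 rose and 6 fell (3 under quantile normalization). Krt8 and Krt18, named above, are among those that fell. Tfap2c, an AP-2 factor of trophoblast and germ cells, was at 24.3 FPKM in line 10 and 22.5 FPKM in line 13, against 0.0356 FPKM in IEC (log2 difference 4.56 ± 0.27 SE, adjusted p = 0.000467).

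Genes of extraembryonic endoderm were lower in the lines. Intermediates of chemical reprogramming are known to pass through a state like this tissue. Of 16 counted, 10 fell and 1, Lama1, rose, and 6 reached 1 FPKM in IEC alone. Dab2, an endocytic adaptor of visceral endoderm, was at 0.686 FPKM in line 10 and 0.756 FPKM in line 13, against 105.2 FPKM in IEC (log2 difference -5.95 ± 0.42 SE, adjusted p = 0.000723). Gata6, the defining transcription factor, was at 0.690 FPKM in line 10 and 0.312 FPKM in line 13, against 14.8 FPKM in IEC (log2 difference -3.41 ± 0.32 SE, adjusted p = 0.00171). Sox17 was under 1 FPKM in all 3 libraries. Several members, such as Sparc and the type IV collagens, are also made by mesenchyme.

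DNA replication genes rose in every counted member. Cells license replication origins in G1 by loading the Mcm helicase with Orc1 and Cdc6. All 24 genes counted rose, with a median of 2.59, where 20.8% of all genes did. Orc1, a subunit of the origin recognition complex, was at 30.4 FPKM in line 10 and 33.4 FPKM in line 13, against 1.57 FPKM in IEC (log2 difference 3.68 ± 0.10 SE, adjusted p = 4.61e-05). Mcm5, a helicase subunit, was at 136 FPKM in line 10 and 137 FPKM in line 13, against 14.2 FPKM in IEC (log2 difference 3.18 ± 0.07 SE, adjusted p = 2.03e-05). Cdc6, the helicase loader, was at 30.9 FPKM in line 10 and 29.95 FPKM in line 13, against 2.69 FPKM in IEC (log2 difference 3.09 ± 0.16 SE, adjusted p = 0.000288). The lines differed little for these genes, and both were far above IEC.

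E2F factors control many of these genes through sites such as TTTCCCGC and TTTGGCGC. Within the 250 bases before the start, on either strand and without mismatch, each form was found in 3 of 20 replication genes with a sequence, against 1.03% of all genes for TTTCCCGC and 0.485% for TTTGGCGC. The 150 bases before the start are shown for Cdc6, which holds TTTCCCGC, and for Mcm5 and Mcm6, which hold TTTGGCGC, with the matches or their reverse complements in capitals (RefSeq, GRCm38.p6).
Cdc6 (chr11:98908001-98908150, plus strand): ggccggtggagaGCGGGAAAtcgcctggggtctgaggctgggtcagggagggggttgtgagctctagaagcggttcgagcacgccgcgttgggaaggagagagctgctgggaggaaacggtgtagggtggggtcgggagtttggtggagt
Mcm5 (chr8:75109359-75109508, plus strand): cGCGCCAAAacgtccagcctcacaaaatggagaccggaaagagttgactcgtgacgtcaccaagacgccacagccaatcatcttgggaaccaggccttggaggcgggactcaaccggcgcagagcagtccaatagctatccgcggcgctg
Mcm6 (chr1:128359706-128359855, minus strand): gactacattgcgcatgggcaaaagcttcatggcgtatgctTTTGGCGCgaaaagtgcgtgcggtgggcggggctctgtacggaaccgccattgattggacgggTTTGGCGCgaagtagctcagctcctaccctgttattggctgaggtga
Mcm6 was at 174 FPKM in line 10 and 164 FPKM in line 13, against 33.4 FPKM in IEC (log2 difference 2.30 ± 0.17 SE, adjusted p = 0.000837) and is named for its sequence. In Cdc6 and Mcm5 the match lies on the opposite strand, and Mcm6 holds 2 on its own strand.

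Mitosis and repair genes rose with replication. Of 20 mitosis genes 19 rose, with a median of 2.41, and all 16 homologous recombination and Fanconi genes did, with a median of 2.62. Ccnb1, the mitotic cyclin, was at 190.2 FPKM in line 10 and 197 FPKM in line 13, against 18.5 FPKM in IEC (log2 difference 3.32 ± 0.07 SE, adjusted p = 1.88e-05). Bub1, a spindle checkpoint kinase, was at 53.9 FPKM in line 10 and 47.3 FPKM in line 13, against 5.03 FPKM in IEC (log2 difference 3.09 ± 0.22 SE, adjusted p = 0.000792). Msh6, a mismatch recognition subunit, was at 185 FPKM in line 10 and 186 FPKM in line 13, against 10.6 FPKM in IEC (log2 difference 4.01 ± 0.10 SE, adjusted p = 3.36e-05). All 3 were higher in both lines than in IEC. Fancd2, a Fanconi anaemia protein, was at 24.3 FPKM in line 10 and 20.8 FPKM in line 13, against 1.20 FPKM in IEC (log2 difference 3.42 ± 0.31 SE, adjusted p = 0.00155). The proliferation antigen gene Mki67 was the mitosis gene that stayed short of 2-fold, at 20.02 FPKM in line 10 and 18.4 FPKM in line 13, against 11.4 FPKM in IEC (log2 difference 0.70 ± 0.15 SE, adjusted p = 0.0176). The hexamer TTTGAA, part of the CHR element of mitotic promoters, was found in 7 of 17 mitosis promoters, against 18.3% of all genes.

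Regulators of the G1 phase were called about as often as other genes. Of 18 genes 4 rose and 6 fell, which is 22.2% and 33.3% beside 20.8% and 28.5% over all genes, and the count of falls was 3 without line 13. Cdkn1c, an imprinted inhibitor of cyclin-dependent kinases, was at 0.886 FPKM in line 10 and 0.332 FPKM in line 13, against 279.9 FPKM in IEC (log2 difference -7.47 ± 0.25 SE, adjusted p = 8.93e-05). Ccnd2, a D-type cyclin, was at 2.37 FPKM in line 10 and 2.98 FPKM in line 13, against 56.7 FPKM in IEC (log2 difference -3.98 ± 0.27 SE, adjusted p = 0.000638). Ccne1, the cyclin of S-phase entry, was at 103 FPKM in line 10 and 114 FPKM in line 13, against 16.8 FPKM in IEC (log2 difference 2.62 ± 0.24 SE, adjusted p = 0.00149). Ccne1 alone of these 3 was higher in the lines. Rbl2, a pocket protein that restrains E2F, was at 3.34 FPKM in line 10 and 2.69 FPKM in line 13, against 13.6 FPKM in IEC (log2 difference -1.87 ± 0.30 SE, adjusted p = 0.00766). Among 8 members that did not pass, the kinase Cdk4 was at 501 FPKM in line 10 and 506 FPKM in line 13, against 351 FPKM in IEC (log2 difference 0.52 ± 0.08 SE, adjusted p = 0.00638). The inhibitor Cdkn1a was at 107 FPKM in line 10 and 102 FPKM in line 13, against 55.5 FPKM in IEC (log2 difference 0.90 ± 0.40 SE, adjusted p = 0.122).

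Most genes of ribosome biogenesis and nucleotide synthesis rose. Of 20 ribosome biogenesis genes 19 rose, with a median of 2.16. Npm1, the nucleolar chaperone, was at 3072 FPKM in line 10 and 3323 FPKM in line 13, against 582 FPKM in IEC (log2 difference 2.45 ± 0.13 SE, adjusted p = 0.000311). Dkc1, the X-linked pseudouridine synthase of ribosomal RNA, was at 233 FPKM in line 10 and 218 FPKM in line 13, against 21.1 FPKM in IEC (log2 difference 3.36 ± 0.11 SE, adjusted p = 7.92e-05). Of 17 nucleotide synthesis genes 15 rose and none fell. Prps1, the X-linked enzyme that makes the ribose donor of all nucleotides, was at 238 FPKM in line 10 and 212 FPKM in line 13, against 9.44 FPKM in IEC (log2 difference 4.43 ± 0.30 SE, adjusted p = 0.000647). Rrm2, the small subunit of ribonucleotide reductase, was at 273 FPKM in line 10 and 249 FPKM in line 13, against 17.6 FPKM in IEC (log2 difference 3.81 ± 0.18 SE, adjusted p = 0.000237). Gart, an enzyme of purine synthesis, was at 171 FPKM in line 10 and 168 FPKM in line 13, against 19.5 FPKM in IEC (log2 difference 3.06 ± 0.10 SE, adjusted p = 7.88e-05).

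Most genes of glycolysis and folate metabolism rose. Of 17 glycolysis genes 13 rose and none fell, with a median of 2.44. The calls of Aldoa, Gpi1, Pfkl and Slc2a1 were lost when either line was left out. Slc2a3, a high-affinity glucose transporter, was at 613 FPKM in line 10 and 586 FPKM in line 13, against 6.77 FPKM in IEC (log2 difference 6.27 ± 0.44 SE, adjusted p = 0.000703). Eno1, the enolase of proliferating cells, was at 1604 FPKM in line 10 and 1455 FPKM in line 13, against 141 FPKM in IEC (log2 difference 3.43 ± 0.18 SE, adjusted p = 0.000326). Pkm, the pyruvate kinase, was at 1827 FPKM in line 10 and 1675 FPKM in line 13, against 255 FPKM in IEC (log2 difference 2.77 ± 0.18 SE, adjusted p = 0.000596). Of 18 genes of folate, serine and glycine metabolism 14 rose and 1 fell. The glycine cleavage genes Gldc and Amt were among those that rose. Gldc was at 41.3 FPKM in line 10 and 40.1 FPKM in line 13, against 3.11 FPKM in IEC (log2 difference 3.34 ± 0.27 SE, adjusted p = 0.00111). Amt was at 94.8 FPKM in line 10 and 88.5 FPKM in line 13, against 2.89 FPKM in IEC (log2 difference 4.57 ± 0.26 SE, adjusted p = 0.000415).

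Lysosomal genes fell and cholesterol synthesis genes were mostly not called. Of 17 lysosomal genes 16 fell, with a median of -2.38. Ctsd, an aspartic protease, was at 124 FPKM in line 10 and 112 FPKM in line 13, against 1986 FPKM in IEC (log2 difference -4.06 ± 0.18 SE, adjusted p = 0.000204). Ctsb, a cysteine protease, was at 48.9 FPKM in line 10 and 43.4 FPKM in line 13, against 874 FPKM in IEC (log2 difference -4.22 ± 0.45 SE, adjusted p = 0.00247). Grn, a lysosomal growth factor precursor, was at 49.4 FPKM in line 10 and 45.5 FPKM in line 13, against 440.5 FPKM in IEC (log2 difference -3.19 ± 0.31 SE, adjusted p = 0.00186). All 3 were lower in both lines but were not near 0 there. In the cholesterol list 1 of 15 genes was called, the cyclase Lss at 23.5 FPKM in line 10 and 17.2 FPKM in line 13, against 52.7 FPKM in IEC (log2 difference -1.35 ± 0.31 SE, adjusted p = 0.0221), and that call was lost in some settings (adjusted p = 0.0726 in a fit of the 3 libraries alone and 0.0803 without line 13). The macrophage markers, all lower in the lines and summing to 102 FPKM in line 10 and 94.1 FPKM in line 13, against 4581 FPKM in IEC, moved with the lysosomal genes, and their part in this was not tested.

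The remaining lists held few calls or calls in both directions. Of 6 genes of interstitial cells of Cajal, the pacemakers of the gut, 2 fell and Kit, which pluripotent cells also express, rose, a call that was lost in other settings (adjusted p = 0.0573 without line 13). Of 4 erythroid and megakaryocyte genes Epor fell and Gata1 rose, both at low levels. The call of Gata1 was lost in another setting (adjusted p = 0.0656 without line 13). Of 14 Hippo pathway genes 6 fell and Tead4 rose, and 3 fell when either line was left out. Of 13 amino acid transporter genes 3 rose and 3 fell, which is 23.1% each way beside 20.8% and 28.5% over all genes. The shares that rose and fell were 16.7% and 33.3% in the Cajal list and 7.14% and 42.9% in the Hippo list. In the erythroid and megakaryocyte list they were 25% each way. Tead4, a DNA-binding partner of Yap1, was at 14.98 FPKM in line 10 and 13.1 FPKM in line 13, against 2.02 FPKM in IEC (log2 difference 2.31 ± 0.27 SE, adjusted p = 0.00323). Axl, a receptor kinase gene and Hippo target, was at 2.68 FPKM in line 10 and 2.51 FPKM in line 13, against 83.6 FPKM in IEC (log2 difference -4.56 ± 0.14 SE, adjusted p = 6.94e-05). Slc7a11, the cystine transporter, was at 0.0622 FPKM in line 10 and 0.0722 FPKM in line 13, against 3.62 FPKM in IEC (log2 difference -2.11 ± 0.05 SE, adjusted p = 3.93e-05).

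**Figure D4:**
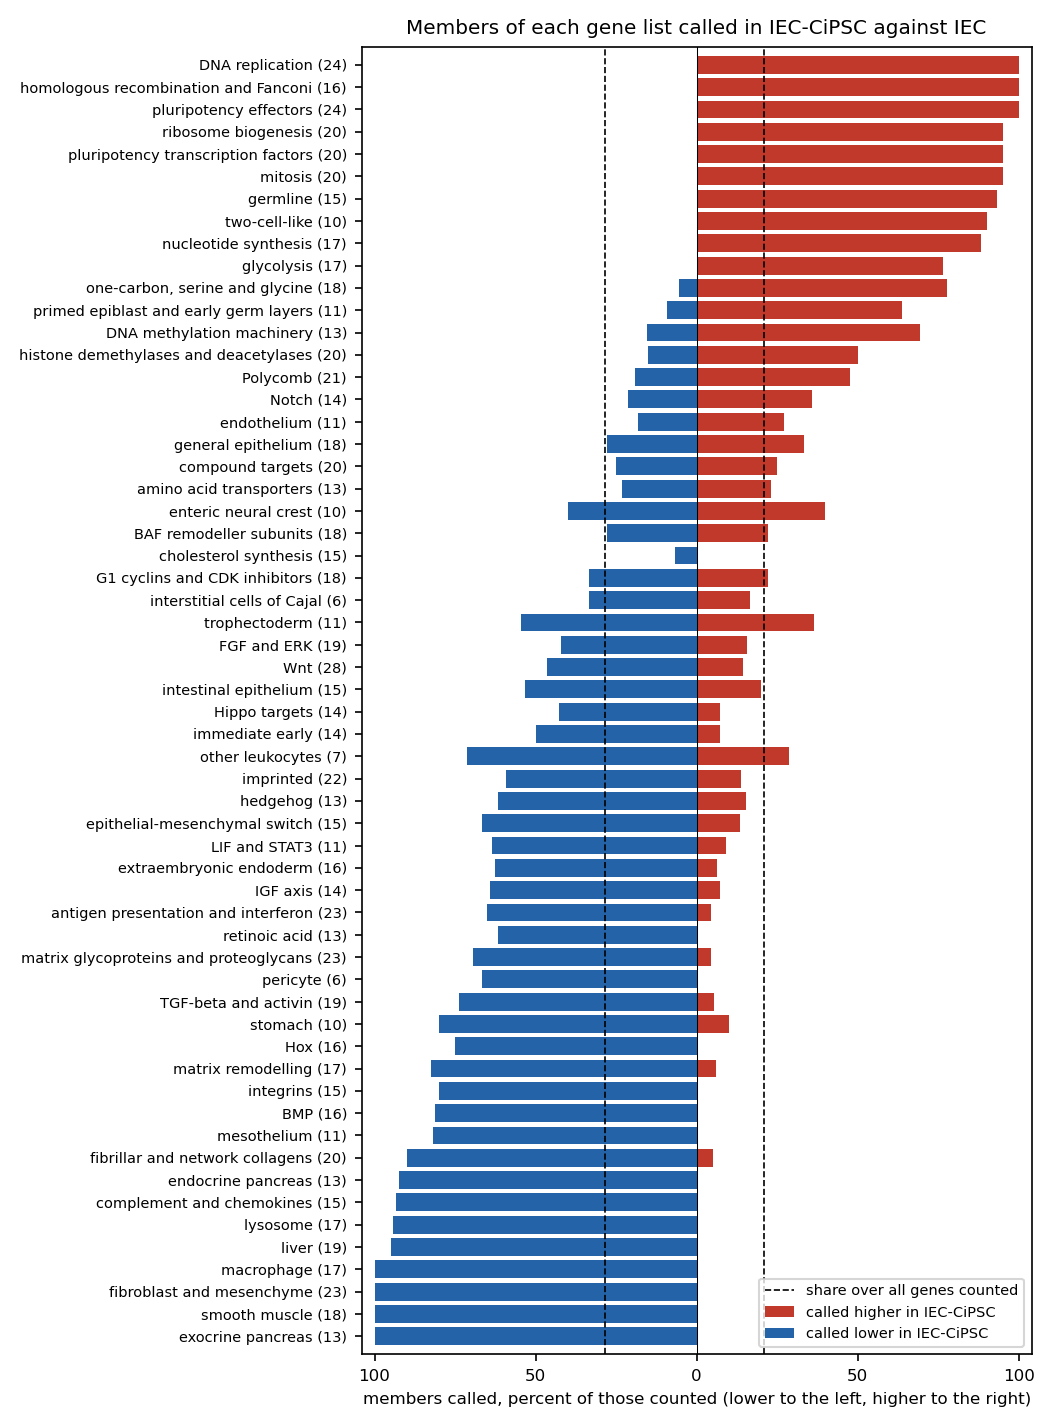
Share of the counted members of each gene list called higher (red, to the right) or lower (blue, to the left) in IEC-CiPSC against IEC, with the number counted in parentheses. Dashed lines mark the shares over all genes, 20.8% higher and 28.5% lower; lists with fewer than 5 counted members are left out. The replication, repair and pluripotency effector lists reach 100% on the right, and exocrine pancreas, smooth muscle, mesenchyme and macrophage lists 100% on the left.

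Chromatin genes moved both ways, in places within a pair of paralogues. Of 21 Polycomb genes 10 rose and 4 fell. Cbx7, the chromobox protein of pluripotent cells, was at 61.2 FPKM in line 10 and 66.8 FPKM in line 13, against 2.88 FPKM in IEC (log2 difference 4.06 ± 0.29 SE, adjusted p = 0.000733). Its paralogue Cbx6 was at 22.4 FPKM in line 10 and 19.8 FPKM in line 13, against 91.6 FPKM in IEC (log2 difference -2.07 ± 0.20 SE, adjusted p = 0.00171). Mtf2, an accessory subunit of the methylating complex, was at 127 FPKM in line 10 and 132 FPKM in line 13, against 7.30 FPKM in IEC (log2 difference 3.98 ± 0.14 SE, adjusted p = 0.000106). Cbx6 was the only one of these 3 that was lower in the lines. The catalytic subunit Ezh2 was at 97.9 FPKM in line 10 and 108 FPKM in line 13, against 14.8 FPKM in IEC (log2 difference 2.72 ± 0.30 SE, adjusted p = 0.00261), while its paralogue Ezh1 did not pass, at 8.47 FPKM in line 10 and 9.75 FPKM in line 13, against 9.63 FPKM in IEC (log2 difference -0.08 ± 0.30 SE, adjusted p = 0.851).

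In the BAF remodelling complex 4 of 18 subunit genes rose and 5 fell (3 under quantile normalization), which is 22.2% and 27.8% beside 20.8% and 28.5% over all genes. The ATPase Smarca2 was at 2.21 FPKM in line 10 and 2.92 FPKM in line 13, against 85.2 FPKM in IEC (log2 difference -4.60 ± 0.26 SE, adjusted p = 0.000417). The alternative ATPase Smarca4 stayed just short of 2-fold, at 53.2 FPKM in line 10 and 51.2 FPKM in line 13, against 26.2 FPKM in IEC (log2 difference 0.97 ± 0.10 SE, adjusted p = 0.00224). Smarcd1 was at 31.6 FPKM in line 10 and 31.5 FPKM in line 13, against 7.53 FPKM in IEC (log2 difference 1.93 ± 0.12 SE, adjusted p = 0.000487). Its paralogue Smarcd3 was at 3.21 FPKM in line 10 and 3.07 FPKM in line 13, against 28.9 FPKM in IEC (log2 difference -2.86 ± 0.20 SE, adjusted p = 0.000754). Lines 10 and 13 were alike in each of these 4 subunits.

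Of 13 DNA methylation genes 9 rose and 2 fell. Uhrf1, which recruits the maintenance methyltransferase, was at 184 FPKM in line 10 and 177 FPKM in line 13, against 11.6 FPKM in IEC (log2 difference 3.86 ± 0.12 SE, adjusted p = 7.39e-05). Tet1, a methylcytosine oxidase, was at 33.6 FPKM in line 10 and 32.3 FPKM in line 13, against 1.64 FPKM in IEC (log2 difference 3.68 ± 0.24 SE, adjusted p = 0.000563). The methyl-binding gene Mbd2 was at 13.3 FPKM in line 10 and 12.004 FPKM in line 13, against 48.3 FPKM in IEC (log2 difference -1.86 ± 0.09 SE, adjusted p = 0.000298). Tet1 and Uhrf1 were higher in both lines, and Mbd2 was lower. Of 20 histone-modifying enzyme genes 10 rose and 3 fell, with the lysine demethylase Kdm2b at 65.1 FPKM in line 10 and 75.5 FPKM in line 13, against 14.04 FPKM in IEC (log2 difference 2.24 ± 0.28 SE, adjusted p = 0.00381).

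Genes for known protein targets of compounds used in chemical reprogramming were called about as often as other genes. Of 20 genes counted, 5 rose and 5 fell, beside 20.8% and 28.5% over all genes. Kdm1a, the lysine demethylase blocked by tranylcypromine, was at 90.6 FPKM in line 10 and 92.8 FPKM in line 13, against 26.6 FPKM in IEC (log2 difference 1.75 ± 0.08 SE, adjusted p = 0.000206). Ahcy, the hydrolase blocked by 3-deazaneplanocin A, was at 267 FPKM in line 10 and 235 FPKM in line 13, against 50.3 FPKM in IEC (log2 difference 2.29 ± 0.14 SE, adjusted p = 0.000485). Gsk3b, the kinase blocked by CHIR99021, did not pass, at 19.6 FPKM in line 10 and 15.9 FPKM in line 13, against 15.2 FPKM in IEC (log2 difference 0.20 ± 0.25 SE, adjusted p = 0.529). Adcy6, one of the adenylyl cyclases activated by forskolin, was at 0.741 FPKM in line 10 and 0.657 FPKM in line 13, against 15.4 FPKM in IEC (log2 difference -3.27 ± 0.16 SE, adjusted p = 0.000288). The list comes from general knowledge of the method, since the sources used here do not name the compounds.

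Imprinted genes fell in most members, beyond H19 and Dlk1. Of 22 counted, 13 fell and 3 rose (Phlda2, Snrpn and Ascl2), with a median of -2.60. The call of Ascl2 was lost in another setting (adjusted p = 0.0579 without line 10). Mest, a paternally expressed gene, was at 14.2 FPKM in line 10 and 21.2 FPKM in line 13, against 226 FPKM in IEC (log2 difference -3.63 ± 0.52 SE, adjusted p = 0.00575). Igf2, a fetal growth factor gene next to H19, was at 3.71 FPKM in line 10 and 3.09 FPKM in line 13, against 1612 FPKM in IEC (log2 difference -8.52 ± 0.43 SE, adjusted p = 0.000290). Snrpn, a paternally expressed splicing gene, was at 65.6 FPKM in line 10 and 64.6 FPKM in line 13, against 6.22 FPKM in IEC (log2 difference 3.20 ± 0.09 SE, adjusted p = 4.79e-05). Meg3, a maternally expressed RNA, did not pass, at 55.5 FPKM in line 10 and 61.5 FPKM in line 13, against 349 FPKM in IEC (log2 difference -2.56 ± 0.87 SE, adjusted p = 0.0646). Many of these genes are expressed in embryonic mesenchyme, whose markers fell beside them, and their part in this was not tested.

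Hox genes, which record position along the body, were mostly lower in the lines. Of 16 counted, 12 fell and none rose, and 14 reached 1 FPKM in IEC alone. Hoxb2 was at 0.0659 FPKM in line 10 and 0.197 FPKM in line 13, against 16.7 FPKM in IEC (log2 difference -3.97 ± 0.17 SE, adjusted p = 0.000174). Hoxa5, a factor of foregut and lung mesenchyme, was at 0.0561 FPKM in line 10 and 0.168 FPKM in line 13, against 15.9 FPKM in IEC (log2 difference -3.93 ± 0.18 SE, adjusted p = 0.000233). Hoxb8 was at 0.115 FPKM in line 10 and 0.0383 FPKM in line 13, against 12.7 FPKM in IEC (log2 difference -3.67 ± 0.09 SE, adjusted p = 3.00e-05). All 3 were above 10 FPKM in IEC and at or near 0 in the lines. Of 14 immediate early genes 7 fell and Dusp1, a phosphatase gene, rose, with Jun, a subunit of the AP-1 factor, at 2.61 FPKM in line 10 and 1.88 FPKM in line 13, against 40.2 FPKM in IEC (log2 difference -3.68 ± 0.25 SE, adjusted p = 0.000672).

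A larger share of genes was called higher on the X chromosome than on any autosome. Of 608 X-linked genes counted, 231 (38.0%) rose, against 15.6% (chromosome 3) to 24.8% (chromosome 4) on single autosomes. Among 180 X-linked genes with at least 10 FPKM in all 3 libraries, the median log2 difference was 0.87. The autosomal median was 0.27, with single autosomes between 0.01 (chromosome 12) and 0.47 (chromosome 16). Under the other scalings and without either line the X median lay between 0.71 and 0.88 and the autosomal median between 0.11 and 0.27.

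Set against ESC, X-linked genes lay at a similar distance. The median of IEC-CiPSC minus ESC was 0.97 on X and 0.06 over autosomes, while NSC-CiPSC minus ESC gave 0.07 on X and 0.10 over autosomes. These contrasts share the ESC library. On chromosome 8 the median was -0.30 for IEC-CiPSC minus ESC and -0.20 for NSC-CiPSC minus ESC. For NSC-CiPSC minus NSC, which shares no library with the intestinal route, the X median was 0.02. Of the 608 X-linked genes 184 (30.3%) had a more positive change in the intestinal than in the neural route by the test of the difference, against 11.1% of autosomal genes.

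Y-linked genes and Xist went the other way. Ddx3y, a Y-linked RNA helicase gene, was at 0.0422 FPKM in line 10 and 0.168 FPKM in line 13, against 9.10 FPKM in IEC (log2 difference -3.19 ± 0.31 SE, adjusted p = 0.00183). Kdm5d, a Y-linked histone demethylase gene, was at 0.0356 FPKM in line 10 and 0.0354 FPKM in line 13, against 1.99 FPKM in IEC (log2 difference -1.53 ± 0.26 SE, adjusted p = 0.00942). Xist, the RNA of X inactivation, was at 0.362 FPKM in line 10 and 0.544 FPKM in line 13, against 19.7 FPKM in IEC (log2 difference -3.84 ± 0.16 SE, adjusted p = 0.000159). IEC thus held both Y-linked transcripts and Xist, and in both lines these were near 0. In the NSC-CiPSC lines Ddx3y lay between 7.89 and 12.7 FPKM. Chromosome constitution was not measured and its part was not tested.

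**Figure D5:**
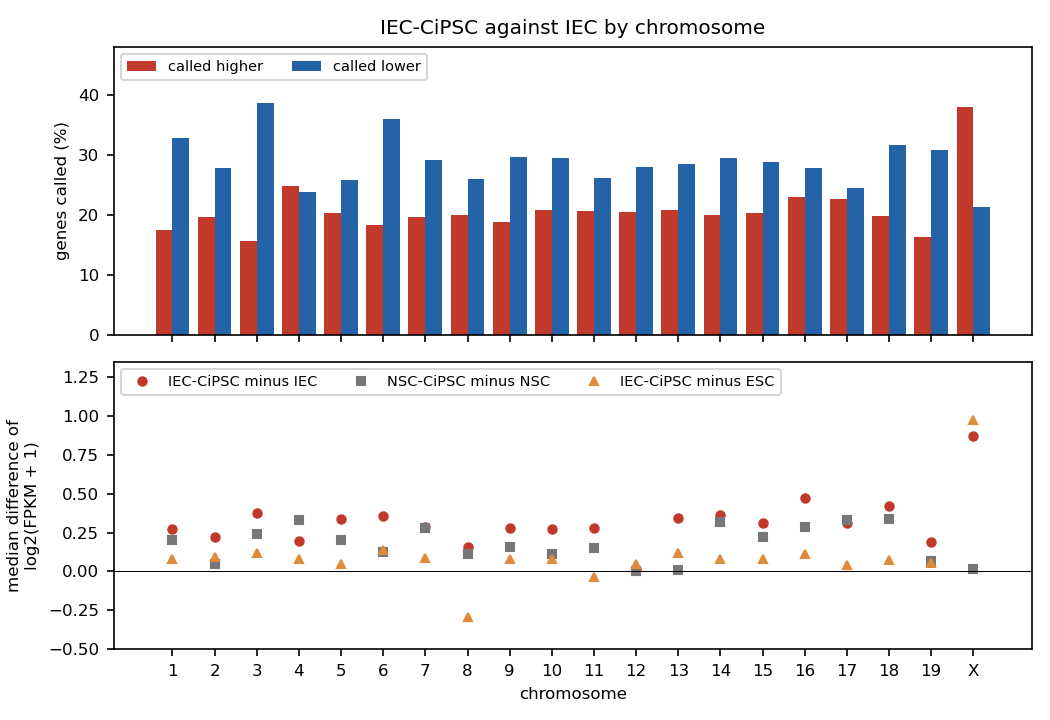
Upper panel, percent of counted genes called higher (red) or lower (blue) in IEC-CiPSC against IEC on each chromosome. Lower panel, median difference of log2(FPKM + 1) over genes with at least 10 FPKM in the 3 libraries, for IEC-CiPSC minus IEC, NSC-CiPSC minus NSC and IEC-CiPSC minus ESC; X stands at 0.87 and 0.97 in the intestinal contrasts and at 0.02 in the neural one.

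Lines 10 and 13 were close, with few genes apart. On the log2(FPKM + 1) scale 165 genes differed by at least 2-fold, 73 higher in line 10 and 92 higher in line 13, and the median absolute difference was 0.12 between the lines against 1.08 between lines and IEC. Each line is 1 library, so these differences have no replicate check. Klf8, a Krüppel-like factor gene, was at 11.9 FPKM in line 10 and 33.6 FPKM in line 13, against 0.600 FPKM in IEC. Prr14l was at 14.6 FPKM in line 10 and 52.3 FPKM in line 13, against 19.7 FPKM in IEC. Myl4, an atrial and embryonic myosin light chain gene, was at 12.7 FPKM in line 10 and 5.87 FPKM in line 13, against 3.61 FPKM in IEC. Tspan5, a tetraspanin gene, was at 17.8 FPKM in line 10 and 8.88 FPKM in line 13, against 12.4 FPKM in IEC. For Klf8 both lines were far above IEC, whereas for Prr14l and Tspan5 the IEC value lay between the lines. The confidence limits of FPKM are wide for such genes. For Prr14l they were 0.79 to 28.4 in line 10, 22.7 to 82.0 in line 13 and 1.55 to 37.8 in IEC, which overlap. For Tspan5 the limits of IEC, 9.51 to 15.2, overlapped those of both lines. The limits of the lines themselves, 13.0 to 22.7 in line 10 and 7.14 to 10.6 in line 13, did not overlap. Nor did those of line 10 and line 13 for Klf8 (7.53 to 16.3 and 20.1 to 47.2) and Myl4 (9.02 to 16.4 and 3.60 to 8.15). Fam107b, a stress-related actin-binding gene, had IEC beside 1 of the lines, at 14.4 FPKM in line 10 and 33.5 FPKM in line 13, against 34.2 FPKM in IEC. Its limits overlapped, as for Prr14l, at 7.06 to 21.8 in line 10, 13.7 to 53.4 in line 13 and 12.9 to 55.4 in IEC.

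A few highly expressed genes had nearly the same level in all 3 libraries. Rps19, a ribosomal protein gene, was at 1748 FPKM in line 10 and 1644 FPKM in line 13, against 1691 FPKM in IEC. Oaz1, the antizyme of polyamine synthesis, was at 465 FPKM in line 10 and 459.9 FPKM in line 13, against 466 FPKM in IEC. H3f3a, the replacement histone H3.3 gene, was at 384 FPKM in line 10 and 384 FPKM in line 13, against 376 FPKM in IEC. Bsg, a chaperone of lactate transporters, was at 537 FPKM in line 10 and 453 FPKM in line 13, against 505 FPKM in IEC. These 4 were among 8 named for the smallest difference, and chosen for it, so they carry no test. After quantile normalization their differences were -0.32, -0.19, -0.19 and -0.21 on the log2 scale.

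The change of the intestinal route was set against that of the neural route gene by gene. The test of the difference called 4791 genes (30.6%), with 1851 (11.8%) more positive and 2940 (18.8%) more negative in the intestinal route. Of the 7714 genes called in IEC-CiPSC against IEC, 3419 (44.3%) also differed between the routes. NSC and IEC are 1 library each, and the difference between them enters this contrast in full.

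Of 20 pluripotency factors 6 had a more positive and 3 a more negative change in the intestinal route, beside 11.8% and 18.8% over all genes. The genes described next include none of those 3. For Pou5f1 the log2 difference was 10.10 in the intestinal route and 8.26 in the neural route (difference 1.84 ± 0.16 SE, adjusted p = 0.00217). Esrrb had 7.27 in the intestinal route and 5.25 in the neural route (difference 2.01 ± 0.12 SE, adjusted p = 0.000741). Dppa5a, an RNA-binding protein gene and not a factor, had 12.11 in the intestinal route and 9.31 in the neural route (difference 2.80 ± 0.40 SE, adjusted p = 0.00923). In IEC these 3 genes were under 0.3 FPKM, and in NSC between 2.02 (Pou5f1) and 4.48 FPKM (Dppa5a). For Nanog the routes were not called apart, with 8.91 in the intestinal route and 7.84 in the neural route (difference 1.06 ± 0.64 SE, adjusted p = 0.263).

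Cell division genes also differed between the routes. Of 20 mitosis genes 18 were more positive in the intestinal route, with medians of 2.41 in the intestinal and 0.58 in the neural route. For Ccnb1 the differences were 3.32 in the intestinal route and 0.86 in the neural route (difference 2.46 ± 0.09 SE, adjusted p = 0.000175). For replication genes 8 of 24 were, with medians of 2.59 in the intestinal and 1.52 in the neural route. For glycolysis 8 of 17 were, with medians of 2.44 in the intestinal and 0.24 in the neural route. For ribosome biogenesis 1 of 20 was, with medians of 2.16 in the intestinal and 2.18 in the neural route.

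General epithelium genes also parted, with 13 of 18 more negative in the intestinal route and medians of -0.53 in the intestinal and 2.59 in the neural route. For Epcam, an epithelial adhesion molecule, the differences were 1.94 in the intestinal route and 5.75 in the neural route (difference -3.81 ± 0.13 SE, adjusted p = 0.000126). For Krt8 they were -3.47 in the intestinal route and 4.95 in the neural route (difference -8.42 ± 0.68 SE, adjusted p = 0.00188). Krt8 moved in opposite directions, while Epcam rose in the intestinal route and further in the neural one. Ptn, among the largest falls, fell in both routes, with -8.34 in the intestinal route and -9.20 in the neural route (difference 0.86 ± 0.38 SE, adjusted p = 0.161). H19 moved in opposite directions, with -8.57 in the intestinal route and 3.73 in the neural route (difference -12.31 ± 0.33 SE, adjusted p = 5.75e-05). Igf2 did so as well, with -8.52 in the intestinal route and 1.78 in the neural route (difference -10.30 ± 0.59 SE, adjusted p = 0.000639).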

How the data were processed

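RNA-seq was read as deposited tables of FPKM per gene, 1 per library, which the authors made against build mm10; the submitters' processing notes name TopHat and Cufflinks. Tool versions, filters and the use of strand are not given in the sources used here, so overlapping and antisense genes cannot be told apart. Each table held 39009 entries, of which 37537 matched GENCODE M21. By gene identifier, 27 symbols turned into dates were restored. The 447 entries with a status other than OK in any library were left out. From the deposited FPKM, log2(FPKM + 1) was fitted with limma 3.58.1 in R 4.3.3, with 1 mean per group over all 8 libraries, an empirical Bayes step with trend, and Benjamini-Hochberg adjustment over 17011 genes with at least 1 FPKM in any library. The fit had 3 residual degrees of freedom and 1.10 prior ones. A call needed a 2-fold difference and an adjusted p under 0.05. Depth was inferred in long genes with a single transcript from FPKM and its upper confidence limit, assuming Poisson (counting) spread. Genes were used if the fragment count so inferred was near a whole number (tolerance 0.02) and between 5 and 60. Depth lay between 8.82 and 10.1 M fragments per library, and fragments are not independent molecules.

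The gene lists, their members and the naming rule were chosen with earlier results of these data known. Named were the 15 largest rises and falls with a mean of at least 10 FPKM in the higher group, up to 6 called members per list, members that did not pass, the 6 genes farthest apart each way between the lines, and 8 of the 300 highest IEC genes with the smallest difference. Selenoprotein genes were not named because their FPKM is inflated. Alternatives were a pseudocount of 0.1, filters at 5 FPKM and at none, 3 scalings, no trend, a fit of the 3 libraries alone, each line left out, protein-coding genes alone and marked entries kept; adjustment over genes of the 3 libraries was added after the data were seen. Promoter sequences are from RefSeq (GRCm38.p6). Some list members are counted but not reported here by name.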

Additional observations from a re-analysis of the deposited data

Results flagged for a closer look

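Each result here was flagged because the change of the intestinal route differed from that of the neural route by limma's test of the difference between routes, (IEC-CiPSC minus IEC) minus (NSC-CiPSC minus NSC), with Benjamini-Hochberg adjustment. IEC and NSC are 1 library each, and what separates them enters every value. In all 4791 genes (30.6%) were called, 1851 (11.8%) more positive and 2940 (18.8%) more negative in the intestinal route. On the X chromosome 184 of 608 genes (30.3%) were more positive, against 11.1% of autosomal genes.

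Tissue lists were more negative in the intestinal route in most of their members. Over all genes 18.8% were more negative and 11.8% more positive. Of the 3 intestinal-route libraries, IEC alone reached 1 FPKM for 13 liver, 11 exocrine pancreas, 13 endocrine pancreas and 15 macrophage genes, so these counts are a description. The counts were 18 of 19 liver genes, 13 of 13 exocrine pancreas genes, 10 of 13 endocrine pancreas genes, 9 of 10 stomach genes, 13 of 18 general epithelium genes and 8 of 15 intestinal epithelium genes. In the gut wall they were 16 of 18 smooth muscle genes, 8 of 11 mesothelium genes and 20 of 23 fibroblast and mesenchyme genes. They were 17 of 17 macrophage genes, 5 of 7 other leukocyte genes, 16 of 23 antigen presentation and interferon genes and 13 of 15 complement and chemokine genes. Matrix lists gave 17 of 20 collagen genes, 17 of 23 glycoprotein and proteoglycan genes and 11 of 17 remodelling genes. Among signalling and positional lists the counts were 7 of 13 hedgehog genes, 10 of 13 retinoic acid genes, 10 of 19 TGF-beta and activin genes, 9 of 15 genes of the epithelial-mesenchymal switch and 13 of 16 Hox genes. Extraembryonic endoderm gave 10 of 16 genes, lysosome 9 of 17 and imprinted genes 15 of 22. Mitosis was the flagged list that was more positive, with 18 of 20 genes.

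Among the largest rises, the difference between routes on the log2 scale was 2.80 for Dppa5a, 1.84 for Pou5f1, 1.10 for Tdgf1, 1.80 for Trap1a, 2.01 for Esrrb and 1.17 for Sept1. Among the largest falls it was -12.31 for H19, -11.23 for Afp, -11.17 for Alb, -10.97 for Lyz2, -10.30 for Igf2, -9.37 for Col3a1, -9.01 for Dcn, -8.44 for Dlk1 and -6.54 for Eln.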

How the results depend on the processing

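The overall counts stayed within 1.5 times under every alternative run: between 6414 and 8157 genes were called, 2714 to 4075 higher and 3482 to 4987 lower, and leaving out line 10 or line 13 gave 6625 and 6554. Genes more often higher than lower were seen under quantile normalization alone. Between routes 3390 to 5268 genes were called. Of 675 list and named genes called, 569 kept their call under every alternative, 106 lost it under at least 1 and none reversed; 65 uncalled genes gained one. Of 59 lists, 50 kept their count within 1.5 times. The exceptions were counts of small size, among them 8 Notch rises under quantile normalization and 4 intestinal epithelium falls at a filter of 5 FPKM. The causes were not tested. Without line 10 64 of these genes lost the call and without line 13 70 did; the single line left is then assumed to vary like the other groups. No paired analysis was possible because the groups compared share fewer than 2 replicate numbers. Depth near 10.1 M fragments limits genes near 1 FPKM, and the single IEC library gives no measure of spread among IEC.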
